A study of Homo sapiens with 7 samples.

Results

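The GATA6 peaks described here surround MYC on the long arm of chromosome 8 in LS174T cells, an established line from a human colorectal carcinoma. They are the peaks whose summit lay between 127800000 and 129500000 of chromosome 8 (hg19), a window of 1.7 Mb around MYC and its gene desert. The list contained 24 such peaks of 7568 in all, and the rest of chromosome 8 held 324. The window was chosen by the high number of peaks it holds in this same list, so its count and the close spacing of its peaks are descriptions and not findings. The peaks are numbered from 1 to 24 from the upstream to the downstream side.

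The study mapped GATA6 binding by chromatin immunoprecipitation followed by sequencing (ChIP-seq). GATA6 was precipitated in 3 libraries, H3K27ac, H3K4me3 and H3K4me1 in 1 library each, and 1 input library was made with no antibody. All 7 libraries came from LS174T cells, with no treatment named in the labels, grown in medium with 10% serum and fixed for 15 min in 1% formaldehyde. A single deposited list of GATA6 peaks was analysed. It holds 1 value per peak and names no library. The spread between the 3 GATA6 libraries is therefore unknown, and differences are described with no test. The height of a peak is the number of fragments piled up at its summit, its fold is that height over a local background, and its score is the authors' −log10 p.

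MYC encodes a basic helix-loop-helix transcription factor that drives growth and proliferation, and in intestinal epithelium it is a target of Wnt signalling. It sits beside a long stretch with few protein-coding genes, which carries enhancers that act on MYC over long distances and common variants associated with colorectal cancer risk. GATA6 is a zinc-finger factor that binds GATA motifs and has roles in the epithelium of the gut. In the gene order of RefSeq (GRCh38.p14, used for order only), the long non-coding RNA genes CCAT1, CASC8 and CCAT2, the retrogene POU5F1B and then CASC11 come before MYC, and the long non-coding RNA gene PVT1 follows it. The nearest protein-coding genes beyond these are LRATD2 before MYC and GSDMC after it. MYC is the gene given a position here, from 128.748 to 128.754 Mb on the plus strand, and distances to it hold to within 1 kb. Peaks were not assigned to the other genes.

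GATA6 peaks lay mostly on the upstream side of MYC. Of the 24 peaks, 19 lay upstream of the MYC start and 5 downstream of it. The upstream side of the window is 948 kb long and the downstream side 752 kb. The upstream side thus carried 2.00 peaks per 100 kb (95% Poisson interval 1.21 to 3.13), against 0.665 per 100 kb (0.216 to 1.55) on the downstream side. The ratio of these rates was 3.01, with an exact binomial interval of 1.09 to 10.3 that covers counting error only and treats neighbouring peaks as independent. When summits within 10 kb of each other were joined into 1, a choice made after the values were seen, 11 groups upstream and 4 downstream gave a ratio of 2.18 (0.646 to 9.39), an interval that includes 1.

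No peak covered the MYC start. The nearest upstream summit, of peak 19, was 97 kb away, and the nearest downstream summit, of peak 20, was 6 kb away, at the 3′ end of the gene. Within 100 kb of the MYC start there were 5 summits, 1 upstream and 4 downstream. Within 200 kb the count was 10, with 6 upstream. Beyond that the downstream side added 1 summit, that of peak 24 at 441 kb, whereas the upstream side added 13. The balance between the sides therefore depended on the distance considered, with the downstream summits in the majority close to the gene and the upstream summits in the majority over the whole window.

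**Figure D1:**
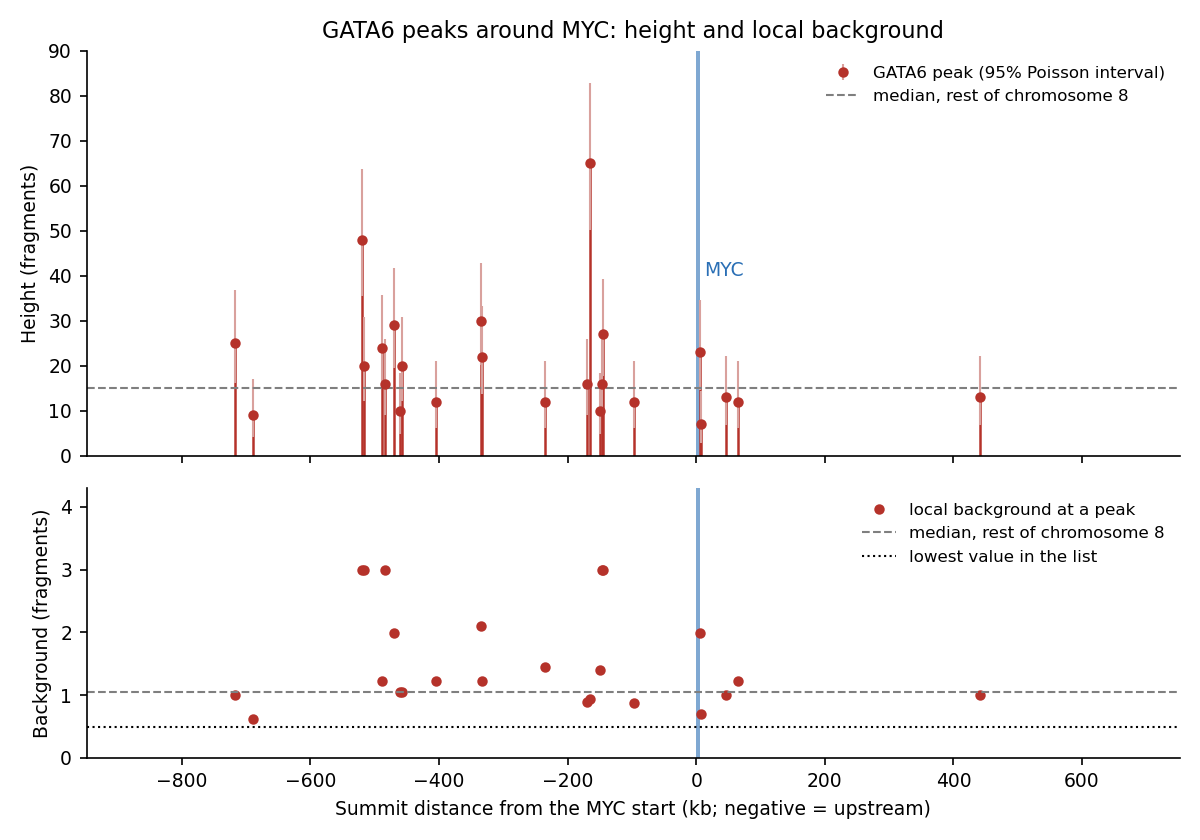
Height (upper panel, fragments at the summit, with 95% Poisson intervals) and local background (lower panel, fragments) of the 24 GATA6 peaks, against the distance of each summit from the MYC start in kb. The blue band is MYC, the dashed lines are medians over the rest of chromosome 8 (15 and 1.05 fragments) and the dotted line is the lowest background in the list (0.489). The highest peak, of 65 fragments, stands 165 kb upstream, and 19 of the 24 points lie left of MYC.

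The upstream peaks came in separate blocks. Most of the window's peaks, from peak 3 to peak 19, lay in a stretch singled out after its values were seen: its 17 summits spanned 424 kb, so 70.8% of the peaks lay in 24.9% of the window. Within it, 7 summits (peaks 3 to 9) spanned 62.2 kb between 458 and 520 kb upstream of MYC. A pair (peaks 11 and 12) followed at 335 and 333 kb, and 5 summits (peaks 14 to 18) spanned 24.8 kb between 145 and 170 kb upstream. Between these blocks peaks 10 and 13 stood alone, with 52.9 and 70.4 kb to the summits beside peak 10 and 97.5 and 65.4 kb to those beside peak 13.

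Linked at 10 kb, the 24 summits formed 5 pairs, 2 groups of 3 and 8 single peaks. The 16 peaks with a neighbour that close made up 66.7% of the window's peaks, against 20.4% on the rest of chromosome 8 and 27.2% over chromosomes 1 to 22 and X. That share follows from the density by which the window was chosen. Neighbouring summits of the window lay a median of 18.1 kb apart (23 distances, from 0.849 to 376 kb), against 156 kb on the rest of chromosome 8. The shortest distance was that between peaks 20 and 21 beside the MYC 3′ end, and the longest was that between peaks 23 and 24 on the downstream side.

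**Figure D2:**
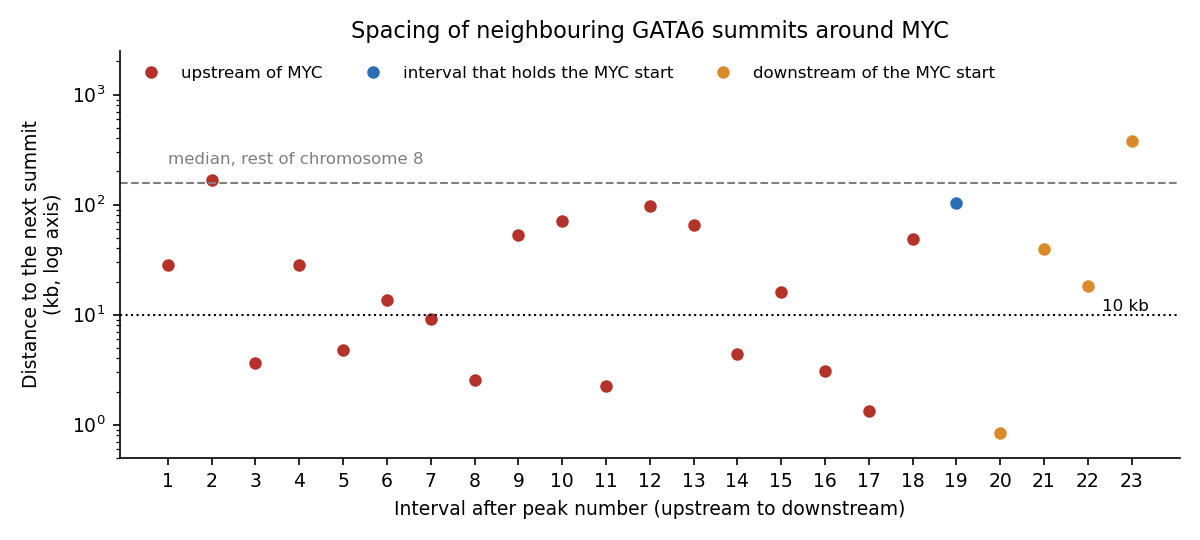
Distance from each summit to the next, in kb on a log axis, in order from the upstream to the downstream side of the window. Red points are intervals upstream of MYC, the blue point is the interval of 103 kb that holds the MYC start, and orange points are intervals downstream of it. The dotted line is the linking distance of 10 kb and the dashed line the median of 156 kb over the rest of chromosome 8, and 9 of the 23 points lie under the dotted line.

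The highest peak of the window also had the highest listed height, fold and score of chromosome 8. Peak 15, on chromosome 8 from 128582322 to 128582971, lay 165 kb upstream of MYC. Its height was 65 fragments (95% Poisson interval 50.2 to 82.8), its fold over the local background was 68.95 and its −log10 p was 94.83. It ranked 1 of 348 on chromosome 8 in height, fold and −log10 p alike, and 23 in the whole list by −log10 p. Its interval of height overlapped that of the next highest peak of the chromosome, a height of 62 (47.5 to 79.5) from 37763296 to 37763729, and their heights were not resolved from each other. The largest fold elsewhere on the chromosome, 58.32, belonged to the peak from 68660874 to 68661422. That peak reached 56 fragments (42.3 to 72.7) on a background of 0.960, so its interval of height also overlapped that of peak 15 and the order by fold was not resolved either. Its local background of 0.943 fragments lay below the median of the rest of chromosome 8, 1.05. At 650 bp it was the third longest peak of the chromosome.

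Next to peak 15, within the same block of 5 summits, stood lower peaks. Peak 14, from 128578161 to 128578408, had its summit 4.42 kb before that of peak 15 and reached 16 fragments (9.15 to 26.0) at a fold of 17.97. Peaks 16, 17 and 18 followed, with summits within 4.41 kb of each other and 145 to 149 kb upstream of MYC. Peak 16, from 128598553 to 128598775, had a height of 10 (4.80 to 18.4) at a fold of 7.16. Peak 17, from 128601642 to 128601935, had a height of 16 at a fold of 5.35. Peak 18, from 128602894 to 128603267, had a height of 27 (17.8 to 39.3) at a fold of 9.02. These 3 folds fell below 10 and the local backgrounds were 1.397, 2.99 and 2.99 fragments, so height rose above background far less there than at peak 15 of the same block.

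The second best score belonged to the first peak of the far upstream block. Peak 3, from 128227282 to 128227847, lay 520 kb upstream of MYC, with a height of 48 fragments (35.4 to 63.6), a fold of 16.04, a −log10 p of 40.72 and a length of 566 bp. In height it ranked 4 on chromosome 8, but in fold 130, since its local background was 2.99 fragments. Peak 4, from 128231107 to 128231464, stood 3.66 kb further on at the same background, reaching 20 fragments (12.2 to 30.9) with a fold of 6.68. Both peaks of this pair thus had the highest listed background of the window, 2.99 fragments, a value shared by peaks 6, 17 and 18.

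The rest of that block alternated between longer and shorter peaks, and the listed heights alternated with the lengths. Peak 5, from 128259459 to 128259944, reached 24 fragments (15.4 to 35.7), with a fold of 19.64 and a length of 486 bp. Peak 6, from 128264382 to 128264568, had a height of 16, a fold of 5.35 and a length of 187 bp. Peak 7, from 128277680 to 128278299, was 620 bp long and reached 29 fragments (19.4 to 41.6), with a fold of 14.53 and a −log10 p of 24.26. It led a group of 3 within 11.8 kb. In that group, peak 8, from 128287112 to 128287301, reached 10 fragments at a fold of 9.55. Peak 9, from 128289618 to 128289968, reached 20 fragments (12.2 to 30.9) at a fold of 19.09. Peaks 5, 7 and 9 had overlapping intervals of height, so these were not ordered. The interval of peak 6 (9.15 to 26.0) overlapped those of peaks 5 and 7, so its lower height was not resolved. The interval of peak 8 (4.80 to 18.4) lay below that of peak 7 but overlapped that of peak 9.

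The pair at 335 and 333 kb upstream held 2 peaks of nearly equal length. Peak 11, from 128413055 to 128413549, reached 30 fragments (20.2 to 42.8), with a fold of 14.32 and a length of 495 bp. Peak 12, from 128415123 to 128415595, reached 22 fragments (13.8 to 33.3), with a fold of 18.00 and a length of 473 bp. Peak 11 had the higher listed height and peak 12 the larger listed fold. The local background was 2.09 fragments at peak 11 and 1.22 at peak 12, only 2.26 kb apart. Their intervals of height overlapped and the folds have no interval, so neither order was resolved. Their −log10 p of 24.84 and 20.92 ranked 4 and 7 in the window.

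Beside MYC itself stood a long peak of modest height. Peak 20, from 128754090 to 128754889, began at the 3′ end of the gene to within the 1 kb of its given position. It was 800 bp long, the longest of the window, the second longest on chromosome 8 and number 15 by length in the list of 7568. Its height was 23 fragments (14.6 to 34.5) and its fold 11.53, and by height it ranked 64 on chromosome 8. Peak 21, from 128755188 to 128755374, followed with its summit 0.849 kb away and was the lowest of the window, with a height of 7 (2.81 to 14.4), a fold of 10.02 and a −log10 p of 6.12. When summits within 1 kb were joined, peaks 20 and 21 were the pair that merged, which left 23 peaks in the window.

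Further downstream, the 3 remaining peaks were low. Peak 22, from 128794792 to 128795183, lay 47 kb from the MYC start and reached 13 fragments (6.92 to 22.2) with a fold of 13.03. Peak 23, from 128812926 to 128813100, lay at 65 kb with a height of 12. Its length of 175 bp was the smallest of the list, shared with other peaks: its rank by length was 6885 of 7568. Peak 24, from 129189176 to 129189382, lay at 441 kb and likewise reached 13 fragments with a fold of 13.03. Over the whole downstream side heights ran from 7 to 23 with a median of 13, whereas upstream they ran from 9 to 65 with a median of 20. Every downstream fold lay between 9.82 and 13.03, while upstream folds ran from 5.35 to 68.95. With 5 downstream peaks whose Poisson intervals overlap those of most upstream peaks, this is a description of single heights.

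The remaining upstream peaks were single ones. Peak 1, from 128030817 to 128031187, lay 717 kb upstream of MYC and had the third best score of the window, 27.05. It reached 25 fragments (16.2 to 36.9) with a fold of 25.06. Peak 2, from 128059209 to 128059391, had a height of 9 (4.12 to 17.1) at a fold of 14.73, on the lowest background of the window, 0.611 fragments. Peaks 10, 13 and 19 were alike in height, each with 12 fragments (6.20 to 21.0). Peak 10, from 128342650 to 128342842, lay 405 kb upstream of MYC at a fold of 9.82. Peak 13, from 128512775 to 128513016, lay 235 kb upstream at a fold of 8.28. Peak 19, from 128651215 to 128651520, was the nearest to MYC of the upstream peaks, with a fold of 13.75, a length of 306 bp, a background of 0.873 fragments and a −log10 p of 10.91. These single peaks were thus low apart from peak 1. Distance from the MYC start and height were weakly related over the 24 peaks (Spearman rho = 0.24, a description over neighbouring peaks of one list).

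The edges of the window fell in long stretches without a peak. The last peak before it, from 126660726 to 126660944, had a height of 16 fragments, a fold of 5.35 and a summit 2.09 Mb upstream of MYC, 1.37 Mb before that of peak 1. The first peak after the window, from 130091522 to 130091732, reached 21 fragments with a fold of 21.05, with its summit 1.34 Mb from the MYC start and 902 kb beyond that of peak 24. These flanking intervals ranked 28 and 46 by length among the 347 on chromosome 8. The nearest outside summits lay 1139 and 592 kb from the edges, so a moderately wider window would hold the same peaks.

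Set beside other windows of the same width, the MYC window, with 24 peaks, was the fullest of chromosome 8. The chromosome was divided into 85 windows of 1.7 Mb on a grid through this one. The 84 others held a median of 3 peaks (interquartile range 1 to 6), 16 of them held none, and the fullest held 17. Those with the most were the windows from 7.1 Mb (17 peaks), from 36 Mb (16 peaks), and from 25.8 and 80.2 Mb (11 peaks each). With the grid left aside and windows started at every summit away from MYC, the fullest held 22. With summits within 10 kb joined, the MYC window kept 15 and was second to a window with 16, so its first place depended on counting close neighbours apart.

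Across chromosomes 1 to 22 and X the MYC window ranked 4 of 1683 windows. The fuller ones lay on chromosome 1 from 168.3 Mb with 29 peaks, on chromosome 13 from 73.1 Mb with 28 and on chromosome 17 from 62.9 Mb with 25. A further window on chromosome 1, from 71.4 Mb, equalled it with 24. The grid of chromosome 8 was laid through the MYC window, whereas on the other chromosomes it began at the chromosome start. Dense stretches there could be split between windows, so the rank may favour the MYC window. In bins of 1 Mb, the bin of chromosome 8 from 128 Mb shared the top count of 23 with a bin of chromosome 17 from 63 Mb. The bin at MYC had a median length of 351 bp, a median height of 16 and a median fold of 13.03. The chromosome 17 bin had a median length of 276 bp, a median height of 18 and a median fold of 14.07.

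**Figure D3:**
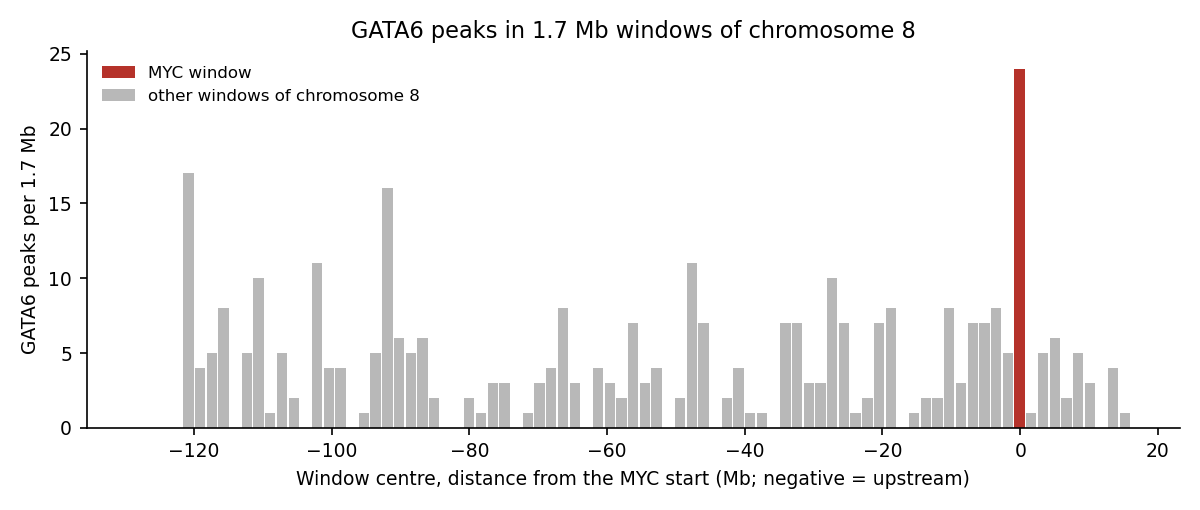
GATA6 peaks in 85 windows of 1.7 Mb along chromosome 8, against the distance of each window's centre from the MYC start in Mb. The MYC window (red) holds 24 peaks, and the other windows (grey) hold 0 to 17.

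The peaks around MYC were longer than those elsewhere on the chromosome, while their heights were similar. The median length was 328.5 bp in the window (interquartile range 204 to 476), against 251.5 bp on the rest of chromosome 8 (205 to 314). Of the 24 peaks, 12 (50.0%) reached 320 bp, the upper quartile of the list, against 24.1% on the rest of chromosome 8 and 25.1% over chromosomes 1 to 22 and X. Of the 30 other windows of chromosome 8 with at least 5 peaks, 1 had a median length as large. Together the 24 peaks covered 8571 bp, or 0.504% of the window.

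The greater length was found among peaks of 23 to 30 fragments. It was not found among peaks of 7 to 13 fragments or among peaks with no close neighbour. Other heights, and peaks with a close neighbour as a group, were not compared. Among peaks of 23 to 30 fragments, a range chosen after the values were seen, the 6 in the window had a median length of 490.5 bp (371 to 800), against 322 bp over 36 peaks on the rest of chromosome 8 (239 to 596). These 2 groups also differed in median local background, with 1.995 fragments in the window and 1.309 elsewhere. Its part in the length was not tested. Among peaks of 7 to 13 fragments, the 10 in the window had a median of 200 bp and the 116 elsewhere 209 bp. Their median backgrounds were 1.022 and 0.890 fragments. Length and height went together in the window (Spearman rho = 0.85 over 24 peaks) and on the rest of the chromosome (rho = 0.60 over 324). Among peaks with no neighbour within 10 kb the direction turned: the 8 such peaks of the window had a median length of 224.5 bp, 24 bp less than on the rest of chromosome 8, and a median height of 12 fragments.

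**Figure D4:**
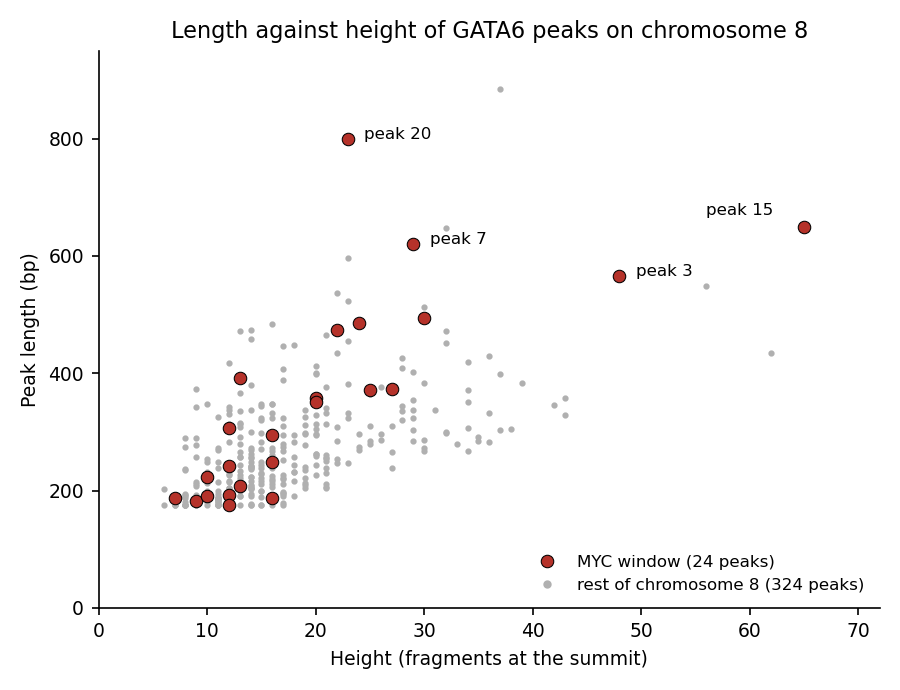
Length in bp against height in fragments for the 24 peaks of the MYC window (red) and the 324 peaks on the rest of chromosome 8 (grey). Peak 20 at the MYC 3′ end reaches 800 bp at a height of 23, and peak 15 lies farthest right, with 65 fragments and 650 bp.

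The median height and median fold of the window stayed close to those elsewhere. The median height was 16 fragments in the window (interquartile range 12 to 24.3), against 15 on the rest of chromosome 8 (12 to 21). The median fold was 13.03 in the window and 14.03 on the rest of chromosome 8. A fold of at least 10 was reached by 15 of the 24 peaks (62.5%), against 77.5% on the rest of chromosome 8 and 76.5% over chromosomes 1 to 22 and X. Peaks 8, 10 and 23 fell just short of that cut, at 9.55, 9.82 and 9.82. The lower share is therefore not read as a trait of the window. By the −log10 q of the authors' deposited table, 11 of the 24 peaks reached the median of the list, 9.24, against 50% of all peaks by construction. After peak 15, which ranked 23 in the whole list by −log10 p, the next best of the window was peak 3, which ranked 477. The lowest fold of the window, 5.35, was shared by peaks 6 and 17.

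The local background, taken as height over fold, was raised at some peaks of the window and low at others. Its median was 1.22 fragments in the window, against 1.05 on the rest of chromosome 8. No peak of the window had the lowest background of the list, 0.489, against 5.56% of peaks on the rest of chromosome 8 and 6.2% over chromosomes 1 to 22 and X. At or below the list median lay 9 of 24 peaks (37.5%), against 50.2% over chromosomes 1 to 22 and X. At least 1.9 fragments were found at 8 of 24 peaks (33.3%), against 24.1% on the rest of chromosome 8 and 27.1% over chromosomes 1 to 22 and X. Of these, 5 had 2.99 fragments (peaks 3, 4, 6, 17 and 18), which lay in the blocks of peaks 3 to 9 and of peaks 14 to 18. The share of the list at that value is not given here, so this only locates the 5 peaks.

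Neighbouring peaks could differ in their listed background. Its highest value in the window was 2.99 fragments and it has no interval here, so such differences were not resolved. It was 1.22 fragments at peak 5 and 2.99 at peak 6, 4.81 kb on, and 1.99 at peak 20 and 0.699 at peak 21, within 1 kb. Of the 30 other windows with at least 5 peaks, 7 had a median background as high as the MYC window, and the highest was 2.00. Over these 31 windows the number of peaks and the median background were hardly related (Spearman rho = 0.097, a description). Whether the local background contributed to the number of peaks called around MYC was not tested. The list gives this background at called peaks and nowhere else.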

How the data were processed

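The deposited file was a list of GATA6 peaks on hg19. Per the submitters' processing notes, CASAVA 1.8 and BWA 0.5.9-r16 were used for the GATA6 libraries. Which peak caller and control were used, and whether the 3 libraries were pooled, is not given in the sources used here. Depth is unknown. Per the file headers, the pileup, a coverage signal called the height, was deposited in whole fragments. The fold was deposited by the authors as a linear ratio over a local background, and the p-value and q-value as −log10 values. These scores are the authors' own. The histone and input libraries were not analysed here.

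Background was computed as height divided by fold. The −log10 p recomputed from it as a Poisson probability differed by at most 0.0116 over the 24 peaks. Positions count from 1. The window and MYC's position came from the definition of the region, chosen with earlier results of these data known, as were the comparisons. Every peak of the window is given by position. Full values were planned for the 5 best-scoring, the 2 nearest MYC on each side, the longest, those at the edges and those in groups of 3. Heights have exact Poisson intervals at 95%, for counting error only: fragments without molecular identifiers are not independent. Python 3.11.15, pandas 2.3.3 and SciPy 1.17.1 were used, and counting and linking were tested on simulated positions. No gene besides MYC was placed, since no hg19 annotation was used here.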

Additional observations from a re-analysis of the deposited data

How the results depend on the processing

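Among peaks at or above the list's median −log10 q, the window held 11 peaks and still ranked 1 on chromosome 8, where no other window held more than 7. Those peaks gave 1.055 peaks per 100 kb upstream and 0.133 downstream of MYC, 2 clusters within 10 kb in place of 7, and medians of 25 fragments, 486 bp and a fold of 17.97, since this keeps higher peaks by construction. They also widened the window's difference from the rest of chromosome 8 to 5 fragments in median height, in place of 1, and to 191.5 bp in median length, in place of 77. Among peaks at or below the list median background the height difference was 0 and the fold difference −2.6, in place of −1. Against windows of chromosomes 1 to 22 and X the rank was 4, on grids that were not fitted to the peaks of the other chromosomes. With summits within 10 kb joined, an alternative chosen after seeing the data, the window held 15, ranked 2, and carried 1.16 per 100 kb upstream. Among peaks with no neighbour within 10 kb, the window minus the rest of chromosome 8 reversed for median height (−3 fragments) and length (−24 bp). The difference in median background all but vanished there (−0.000109 fragments, in place of 0.175). The cause of these changes was not tested. They rest on 8 peaks of the window. No library could be left out, because the list gives no value per library. No paired analysis was possible because the list has no value per library and no test was made.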
